A study of Homo sapiens and Canis lupus familiaris with 27 samples.

Results

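The AP-1 and EGR immediate early genes are 10 genes of the FOS family (FOS, FOSB, FOSL1 and FOSL2), the JUN family (JUN, JUNB and JUND) and the EGR family (EGR1, EGR2 and EGR3). They were taken by name from the gene count tables of 3 prostate carcinoma cell lines, which hold 25300 different gene names in all. The human cell lines were PC-3, from a bone marrow metastasis, and LNCaP, from a lymph node metastasis, and CT1258 is a cell line from a canine prostate adenocarcinoma. Cells were exposed to the indolylmaleimide PDA-66 at 15 µM for 12 h or for 24 h, and the controls received the vehicle, 0.15% (v/v) DMSO, and are labelled with 24 h. Each of the 9 groups had 3 samples. The table of PC-3 holds 2 of the 3 DMSO controls, so that 26 libraries were used. The 12 h and the 24 h group of a cell line share the same controls, and no 12 h control was included, so that time in DMSO cannot be told apart from the exposure in the 12 h comparison. Each group comes from an established cell line, and the study describes its samples as independent biological replicates of that line, so that p-values measure the spread between cultures of the line. All 10 genes were listed in both human tables. In CT1258 no row was named FOS, and the other 9 genes were listed. After low counts were filtered, 9 of the 10 genes were tested in PC-3 (not EGR3), 7 in LNCaP (not FOSL1, EGR2 and EGR3) and 7 of the 9 in CT1258 (not FOSB and EGR3).

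Immediate early genes are transcribed within minutes of a growth factor or stress signal, without new protein synthesis. Mitogen-activated protein kinases phosphorylate ternary complex factors such as ELK1, which act with serum response factor at CArG boxes of several of these promoters. FOS and JUN proteins pair through leucine zippers into AP-1 dimers that bind the sequence TGANTCA, where N is any base, and JUN proteins also pair among themselves. EGR proteins are zinc finger factors that bind GC-rich sites of the form GCGNGGGCG and are restrained by the corepressors NAB1 and NAB2. In carcinoma cells, FOSL1 is known for its link to an invasive, mesenchymal state, and JUND is known as the more constantly expressed JUN protein.

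The promoters of the members were searched for these sites. The 250 bases before a transcription start were taken from RefSeq sequences of build GRCh38.p14, and each window was placed in GRCh37, the human build of the count tables, by an exact match that occurred once. Of the 10 genes, 8 had an entry (10 start sites, of which 3 belong to EGR2), and none was held for FOSL1 and EGR3. The windows of 4 genes are shown, those of FOS and EGR1, the members with the largest falls in the human lines, of EGR2 at its start with a CArG box, and of JUND. Capitals mark matches on either strand to a CArG box, TGACGTCA, TGANTCA or GCGNGGGCG, and no matches overlapped.
FOS, chr14:75745281-75745530, plus strand: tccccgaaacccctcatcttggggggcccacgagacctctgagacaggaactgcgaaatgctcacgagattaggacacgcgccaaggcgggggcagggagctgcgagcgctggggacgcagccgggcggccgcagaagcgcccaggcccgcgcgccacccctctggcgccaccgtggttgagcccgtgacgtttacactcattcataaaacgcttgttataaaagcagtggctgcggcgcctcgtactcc
EGR1, chr5:137800918-137801167, plus strand: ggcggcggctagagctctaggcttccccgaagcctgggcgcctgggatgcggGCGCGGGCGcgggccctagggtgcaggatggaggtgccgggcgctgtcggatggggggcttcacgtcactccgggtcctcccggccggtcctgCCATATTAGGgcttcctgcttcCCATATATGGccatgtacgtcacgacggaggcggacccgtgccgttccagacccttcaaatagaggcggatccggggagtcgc
EGR2, chr10:64576127-64576376, minus strand: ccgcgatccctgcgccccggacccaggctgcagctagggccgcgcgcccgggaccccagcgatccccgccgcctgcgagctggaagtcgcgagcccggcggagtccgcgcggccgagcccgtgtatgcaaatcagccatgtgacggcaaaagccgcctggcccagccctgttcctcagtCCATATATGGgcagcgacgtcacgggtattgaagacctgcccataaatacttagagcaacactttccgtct
JUND, chr19:18392433-18392682, minus strand: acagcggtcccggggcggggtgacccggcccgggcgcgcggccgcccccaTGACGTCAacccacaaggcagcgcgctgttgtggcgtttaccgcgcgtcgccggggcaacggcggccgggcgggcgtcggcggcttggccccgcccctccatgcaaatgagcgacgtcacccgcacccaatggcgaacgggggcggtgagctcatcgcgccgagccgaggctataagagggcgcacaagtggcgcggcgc
The EGR1 window held 2 CArG boxes, from 105 to 96 and from 83 to 74 bases before the start, and 1 EGR site. The EGR2 window held 1 CArG box, from 71 to 62 bases before that start. A CArG box was present in 1.16% of the 35116 windows of this length in the RefSeq table. TGACGTCA, a cyclic AMP response element, was found in the JUND window from 200 to 193 bases before the start, and in 1.65% of all windows. The FOS window, like those of FOSB, FOSL2, JUN and JUNB and the other EGR2 starts, held none of the 4 motifs, of which TGANTCA was present in 6.57% and GCGNGGGCG in 8.41% of all windows. A match is a description of letters, and binding was not measured. Bases further upstream were not searched, so that a site of FOS or another member beyond its window would be missed.

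PC-3 libraries held 14650839 to 18091755 counts and LNCaP libraries 11923105 to 14741883. CT1258 libraries ranged from 7203534 to 20976950 counts, and the DMSO libraries (19909616 to 20976950) were deeper than the PDA-66 libraries (7203534 to 8325867). The relative spread between replicates beyond counting error (edgeR's common biological coefficient of variation) came to 0.0971 for PC-3, 0.1 for CT1258 and 0.240 for LNCaP, so that the same change was harder to detect in LNCaP. Levels are given as CPM, the counts of a gene relative to the TMM-scaled size of its library, and differences are log2 fold changes with their standard error (SE). Calls are Benjamini-Hochberg adjusted p-values under 0.001 from the edgeR quasi-likelihood F test over all genes tested in a cell line. In these bulk samples, fewer cells and less RNA per cell cannot be told apart. The epithelial genes KRT8 and KRT18 were present in both human lines. CDH1 was at a mean of 2.43 CPM in PC-3 and 741 CPM in LNCaP, and EPCAM at 8.88 and 98.0 CPM. The luminal genes KLK2 and FOLH1 were high in LNCaP (means of 388 and 1152 CPM) and at or near 0 in PC-3. In CT1258, KRT8, KRT18 and CDH1 had no row, and EPCAM was at 0.0712 CPM. Of the stromal genes there, LUM was at 353 CPM, COL1A1 was at 0.0314 CPM and DCN had no row. The carcinoma origin of this line therefore rests on its label.

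The 2 PC-3 controls stood apart in these genes. FOS was at 48.3 CPM in DMSO replicate 2 and at 132 CPM in replicate 3, FOSB at 6.62 and 22.1, EGR1 at 20.2 and 87.0, EGR2 at 1.28 and 6.50, EGR3 at 0.540 and 2.55 and JUN at 81.8 and 143. Of the 9 members tested, 5 were at least 1.5 times higher in replicate 3, against 7.2% of all genes, and none was that much lower, against 8.38%. Of 22 other immediate early genes, among them CTGF (45.3 and 134 CPM) and KLF2 (4.12 and 10.1 CPM), named for their ratios once these were seen, 12 were at least 1.5 times higher in replicate 3 and none was that much lower. The part of this difference in the PC-3 results was examined by leaving out either control, and values that change with it are given beside the result. With only replicate 2 or only replicate 3 left, an adjusted p leaves out the spread between the controls and is not read as support.

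**Figure D1:**
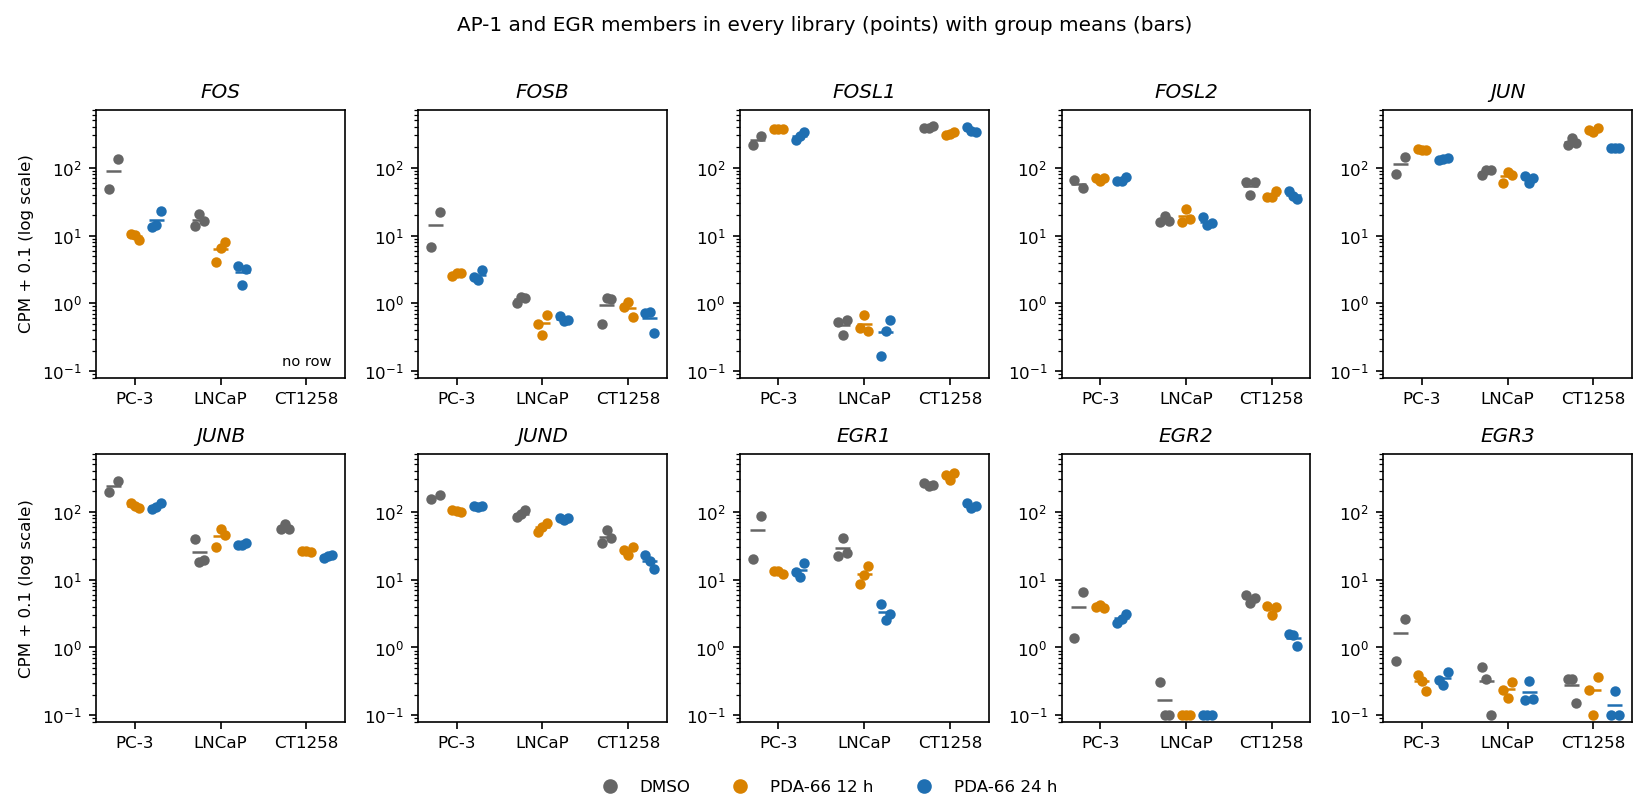
CPM (log axis, 0.1 added) of the 10 members in every library of PC-3, LNCaP and CT1258, with points for libraries and bars for group means. The PC-3 DMSO points of FOS (48.3 and 132 CPM) lie above all PDA-66 points of that line (8.42 to 23.1 CPM), and FOSL1 is under 1 CPM in LNCaP and over 200 CPM in the other lines.

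FOS, the founding member of its family and an unstable, strongly inducible transcript, lies at chr14:75745529-75748933 (GRCh37, plus strand) with 4 exons. In PC-3 it fell from 48.3 and 132 CPM in the controls to 8.42, 9.93 and 10.5 CPM after 12 h of PDA-66, and it was at 13.3, 14.4 and 23.1 CPM after 24 h. The groups did not overlap at either time. The fall was 9.36-fold after 12 h (log2 fold change -3.23, SE 0.33, adjusted p = 3.91e-06) and 5.36-fold after 24 h (-2.42, SE 0.32, adjusted p = 4.96e-05). With only control replicate 2, the lower one, the log2 fold change was -2.31 after 12 h and -1.51 after 24 h. In LNCaP, FOS was at 13.7, 21.0 and 16.3 CPM in DMSO, at 3.92, 6.50 and 8.03 CPM after 12 h and at 3.45, 1.79 and 3.07 CPM after 24 h. All PDA-66 libraries lay below all controls, and the 24 h group lay below the 12 h group. Between these 2 PDA-66 groups the log2 difference was -1.14 (SE 0.33) and did not pass 0.05 (adjusted p = 0.643). The log2 fold changes of -1.47 (SE 0.31, adjusted p = 0.0230) and -2.61 (SE 0.33, adjusted p = 0.0129) passed 0.05 but not 0.001. The 12 h change missed 0.05 without DMSO replicate 2 or 3, with adjusted p-values of 0.0869 and 0.0812, and the 24 h change without either of these or any 1 of the 24 h replicates, with adjusted p-values of 0.0505 to 0.0991. At 24 h the edgeR likelihood ratio test gave an adjusted p of 2.22e-10, DESeq2 9.25e-11 and limma voom with quality weights 2.72e-06 for the same fall. The share of all LNCaP genes that these other tests called is not given, so that these values are not read as support.

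FOSB, the close relative of FOS on chromosome 19 (chr19:45971253-45978437, 4 exons), likewise fell in PC-3. It was at 6.62 and 22.1 CPM in the controls, at 2.43, 2.70 and 2.74 CPM after 12 h and at 2.14, 2.37 and 3.04 CPM after 24 h. It fell by 2.45 (SE 0.38, adjusted p = 0.000109) and by 2.52 (SE 0.38, adjusted p = 0.000144) on the log2 scale, and with only control replicate 2 by 1.32 and by 1.38. Without any 1 of the 24 h libraries the adjusted p of the 24 h fall lay between 0.00104 and 0.00147. In LNCaP, FOSB was at about 1 CPM (0.917, 1.15 and 1.08) in DMSO, at 0.398, 0.247 and 0.574 CPM after 12 h and at 0.542, 0.447 and 0.460 CPM after 24 h. These are 3 to 14 counts a library, and the log2 fold changes were -1.33 (adjusted p = 0.0468) and -1.10 (adjusted p = 0.118). The first of these missed 0.05 when any 1 LNCaP library was left out other than DMSO replicate 1 or PDA-66 12 h replicate 2, with adjusted p-values of up to 0.145. In CT1258, between 2 and 22 counts were recorded a library, and FOSB was not tested there.

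The Fos-related antigens FOSL1 and FOSL2, which lack the transactivation domain of FOS, were not called lower in PC-3. FOSL1 (chr11:65659520-65668044, minus strand, 4 exons) was among the most abundant members there, with 214 and 291 CPM in DMSO, 367, 370 and 372 CPM after 12 h and 255, 294 and 333 CPM after 24 h. Its 12 h libraries lay above both controls by 0.55 on the log2 scale (SE 0.14), but the adjusted p of 0.00367 missed the threshold. With only control replicate 2 the difference was 0.80, and after 24 h the groups overlapped (0.22, SE 0.13, adjusted p = 0.188). In LNCaP, FOSL1 was at 0.0677 to 0.576 CPM, which is 1 to 7 counts a library. In CT1258 it was at 379 to 413 CPM in DMSO, 306 to 330 CPM after 12 h and 333 to 401 CPM after 24 h, with log2 fold changes of -0.31 (SE 0.087, adjusted p = 0.00599) and -0.12 (SE 0.087, adjusted p = 0.246).

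FOSL2 (chr2:28615315-28640184, plus strand, 4 exons) was not called in any comparison with all libraries. In PC-3 it was at 49.2 and 66.6 CPM in DMSO and between 63.1 and 73.7 CPM after PDA-66, and in LNCaP at 15.8 to 19.0 CPM in DMSO and 14.2 to 24.6 CPM after PDA-66. The groups overlapped in both lines, and the log2 fold changes lay between -0.09 and 0.23 with adjusted p-values of 0.152 to 0.870. In CT1258, the value was 61.0, 38.8 and 60.5 CPM in DMSO, between 36.9 and 45.0 CPM after 12 h and between 34.9 and 45.8 CPM after 24 h. There the log2 fold changes were -0.43 (adjusted p = 0.0318) and -0.44 (adjusted p = 0.0319), and without DMSO replicate 2, the low control, they were -0.62 (adjusted p = 5.81e-06) and -0.63 (adjusted p = 6.32e-06). Without DMSO replicate 1 they were -0.32 and -0.33. When 1 library at a time was left out, the adjusted p reached 0.109 at 12 h and 0.126 at 24 h.

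JUN, the main partner of FOS in AP-1 and encoded by a single exon in its canonical transcript (chr1:59242517-59249720, minus strand), rose at 12 h in CT1258. There it was at 214, 272 and 230 CPM in DMSO and at 358, 330 and 383 CPM after 12 h, and it rose 1.5-fold (log2 fold change 0.58, SE 0.095, adjusted p = 9.38e-05). After 24 h it was at 197, 198 and 194 CPM, below all controls, and the difference of -0.28 (SE 0.096, adjusted p = 0.0189) missed the threshold. The fall from 12 h to 24 h was 1.82-fold (-0.87, SE 0.097, adjusted p = 0.000104). Without PDA-66 12 h replicate 1, or without any 1 of the 24 h replicates, the adjusted p of this fall lay between 0.00114 and 0.00134 and missed the threshold. In PC-3, JUN was at 81.8 and 143 CPM in DMSO, at 179, 180 and 186 CPM after 12 h and at 131, 134 and 137 CPM after 24 h. The 12 h libraries lay above both controls (0.69, SE 0.17, adjusted p = 0.00354), and the difference was 1.16 with only control replicate 2 and 0.35 with only replicate 3. The 24 h libraries lay between the controls (0.25, SE 0.17, adjusted p = 0.230), and the difference was 0.73 with only replicate 2 and -0.09 with only replicate 3. In LNCaP the values were 76.8, 93.0 and 91.5 CPM in DMSO, 58.8, 87.4 and 79.1 CPM after 12 h and 74.0, 59.4 and 71.4 CPM after 24 h, with adjusted p-values of 0.458 and 0.337.

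JUNB, a JUN protein that can restrain JUN and that is encoded by a single exon (chr19:12902300-12904129, plus strand), fell in PC-3 and in CT1258 at both times. In CT1258 it was at 55.6, 64.9 and 54.9 CPM in DMSO, 26.6, 26.3 and 25.3 CPM after 12 h and 20.6, 21.9 and 23.3 CPM after 24 h, a fall of 2.24-fold (-1.16, SE 0.10, adjusted p = 3.24e-07) and of 2.66-fold (-1.41, SE 0.10, adjusted p = 1.10e-07). In PC-3 it was at 192 and 283 CPM in DMSO, at 115, 120 and 134 CPM after 12 h and at 110, 116 and 133 CPM after 24 h. The falls were 1.94-fold (-0.95, SE 0.14, adjusted p = 9.37e-05) and 1.99-fold (-0.99, SE 0.14, adjusted p = 0.000104). On the log2 scale they were -0.64 and -0.67 with only control replicate 2, and -1.20 and -1.23 with only replicate 3. In LNCaP, JUNB was at 39.6, 17.9 and 19.3 CPM in DMSO, at 30.6, 55.2 and 45.3 CPM after 12 h and at 32.1, 32.0 and 34.3 CPM after 24 h. DMSO replicate 1 lay apart from the other two controls, the groups overlapped, and the log2 fold changes were 0.77 (SE 0.32, adjusted p = 0.143) and 0.36 (SE 0.32, adjusted p = 0.604). Without DMSO replicate 1 they were 1.24 (adjusted p = 0.0203) and 0.82 (adjusted p = 0.0874). The lowest values were 0.57 at 12 h, without PDA-66 12 h replicate 2, and 0.16 at 24 h, without DMSO replicate 2. The adjusted p was highest without DMSO replicate 2, at 0.387 and 0.931. Of the JUNB transcript, 259 of 1830 bases (14.2%) are also exonic in HOOK2 on the opposite strand, and whether the authors' counting used the strand is not given in the sources used here.

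JUND, at chr19:18390504-18392432 on the minus strand, was lower after 12 h of PDA-66 by a like amount in all 3 lines, with a log2 fold change of -0.67 for PC-3, -0.65 for LNCaP and -0.69 for CT1258. In PC-3 it was at 154 and 175 CPM in DMSO and at 99.2, 103 and 108 CPM after 12 h (SE 0.094, adjusted p = 5.20e-05). In LNCaP it was at 82.3, 91.8 and 106 CPM in DMSO and at 50.3, 59.3 and 69.2 CPM after 12 h (SE 0.17, adjusted p = 0.0421), and in CT1258 at 34.1, 53.4 and 41.5 CPM and at 26.8, 22.9 and 30.6 CPM (SE 0.18, adjusted p = 0.00318). The groups did not overlap in any of the lines, and the change passed 0.001 in PC-3. In LNCaP it missed 0.05 when any 1 library was left out other than DMSO replicate 1 or PDA-66 12 h replicate 2, with adjusted p-values of up to 0.165. After 24 h, in CT1258, JUND was at 22.6, 18.9 and 14.4 CPM and had fallen 2.3-fold (-1.20, SE 0.18, adjusted p = 6.82e-05). In PC-3 it was then at 116, 121 and 123 CPM (-0.45, SE 0.094, adjusted p = 0.00146). The PC-3 value was -0.54 with only control replicate 3 and -0.34 with only replicate 2. In LNCaP it was at 80.3, 75.7 and 79.9 CPM after 24 h (-0.25, SE 0.17, adjusted p = 0.466).

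EGR1, the EGR member that responds to many growth and stress signals and whose window held the CArG boxes shown above, lies at chr5:137801168-137804992 with 2 exons. In LNCaP it was at 22.1, 41.1 and 24.6 CPM in DMSO, at 8.43, 11.8 and 15.6 CPM after 12 h and at 4.33, 2.46 and 3.07 CPM after 24 h. The 3 groups were fully separate, and the 24 h value was 8.86-fold under the control (-3.15, SE 0.35, adjusted p = 0.00548), after 2.45-fold at 12 h (-1.29, SE 0.32, adjusted p = 0.0352). These passed 0.05 but not 0.001, and at 24 h the edgeR likelihood ratio test gave an adjusted p of 6.95e-14, DESeq2 2.12e-15 and limma voom 5.29e-07. As for FOS, the share of all genes called by these other tests is not given. The edgeR quasi-likelihood test missed 0.05 at 24 h without any 1 of the 24 h replicates (adjusted p = 0.0561 to 0.0652), and at 12 h without DMSO replicate 2 or 3, PDA-66 12 h replicate 1 or any 1 of the 24 h replicates (adjusted p = 0.0516 to 0.132). Between the 12 h and the 24 h group of LNCaP the log2 difference was -1.85 (SE 0.34) and did not pass 0.05 (adjusted p = 0.643). In CT1258, EGR1 was one of the most highly counted members, at 267, 237 and 248 CPM in DMSO. It was at 345, 294 and 370 CPM after 12 h, above all controls (0.42, SE 0.098, adjusted p = 0.00155), and at 134, 112 and 122 CPM after 24 h, where it had fallen 2.04-fold (-1.03, SE 0.10, adjusted p = 1.68e-06). The fall between the time points was 2.74-fold (-1.45, SE 0.10, adjusted p = 1.18e-05).

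In PC-3, EGR1 was at 20.2 and 87.0 CPM in DMSO, at 12.1, 13.4 and 13.5 CPM after 12 h and at 10.7, 12.9 and 17.2 CPM after 24 h. All PDA-66 libraries lay below both controls, and the log2 fold change was -2.04 (SE 0.40, adjusted p = 0.000755) after 12 h and -1.99 (SE 0.40, adjusted p = 0.00123) after 24 h. The size of this change was set by the control used. It was -2.73 and -2.68 with only DMSO replicate 3, and -0.62 and -0.56 with only replicate 2. The 12 h call missed the threshold without any 1 of the 6 PDA-66 libraries, with adjusted p-values of 0.00104 to 0.00341.

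EGR2, a lineage regulator in nerve and immune cells (chr10:64571756-64578927, minus strand, 2 exons), fell in CT1258. It was at 5.90, 4.38 and 5.32 CPM in DMSO, at 4, 2.88 and 3.88 CPM after 12 h and at 1.47, 1.44 and 0.95 CPM after 24 h, which is 7 to 12 counts a library. The fall after 24 h was 3.99-fold (-2.0, SE 0.25, adjusted p = 1.54e-05), and at 12 h the groups did not overlap either (-0.54, SE 0.21, adjusted p = 0.0299). In PC-3 the controls at 1.28 and 6.50 CPM enclosed all PDA-66 libraries (2.19 to 4.08 CPM), and the log2 fold change at 12 h was -0.02 (adjusted p = 0.974). With only control replicate 3 it was -0.75 and with only replicate 2 it was 1.59, so that the direction in PC-3 depended on 1 library. At 24 h the corresponding values were -0.59 (adjusted p = 0.274) with both controls, -1.32 with only replicate 3 and 1.02 with only replicate 2. Of the EGR2 transcript, 145 bases (4.87%) are also exonic in a long noncoding RNA gene on the same strand. In LNCaP, EGR2 had 3 counts in 1 DMSO library and 0 in the other 8 libraries, where a count of 0 allows up to 0.204 to 0.252 CPM (3 counts in a library, counting error only). EGR3, which binds the same sites as EGR1, was not tested. It was at 0.540 and 2.55 CPM in the PC-3 controls, at 0.131 to 0.338 CPM after PDA-66, and at most 0.423 CPM in LNCaP and 0.267 CPM in CT1258.

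**Figure D2:**
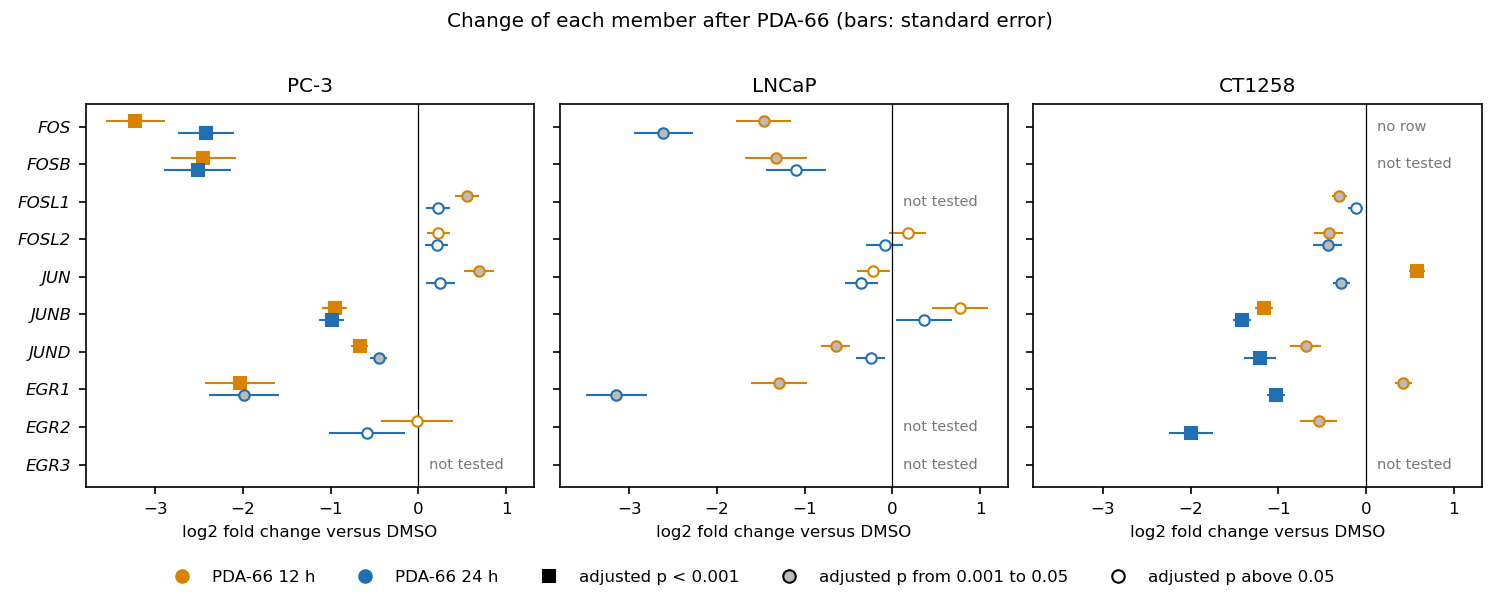
Log2 fold change against DMSO (x axis, bars for the standard error) of each member after 12 h and 24 h of PDA-66 in PC-3, LNCaP and CT1258, with squares for adjusted p-values under 0.001 from edgeR. FOS reached -3.23 in PC-3 at 12 h and EGR1 -3.15 in LNCaP at 24 h, and JUN at 12 h in CT1258 (0.58) is the only square to the right of 0.

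In PC-3 after 12 h, 5 of the 9 members tested were called lower (FOS, FOSB, JUNB, JUND and EGR1) and none higher, where 14.6% of the 13777 genes tested were called lower and 13% higher. After 24 h, 3 were called lower (FOS, FOSB and JUNB) and none higher, against 10.5% and 8.88% of all genes, and 5 members passed an adjusted p of 0.05 in either direction, against 49.9%. Between the PDA-66 groups of PC-3 no member was called by edgeR, where 0.777% of genes were higher and 0.631% lower at 24 h. Of the 9 members, 4 had an unadjusted p under 0.05 in this contrast, beside 3377 of 13777 genes, and limma voom called 2 members, beside 16.8% of genes. In LNCaP no member was called at 0.001 in any comparison, but few genes were. At 12 h, 0.0076% of 13156 genes were called lower and 0% higher, and at 24 h and between the time points the share was 0% in both directions. The study, which also used edgeR at an FDR of 0.001, reported many more LNCaP genes against DMSO at both times. The near absence of calls therefore holds for the quasi-likelihood test used here. At 0.05, 4 of the 7 members tested were lower after 12 h (FOS, FOSB, JUND and EGR1), against 4.62% of all genes, and none was higher, against 4.52%. After 24 h, 2 were lower at 0.05 (FOS and EGR1), against 1.57%, and none higher, against 1.35%. At an unadjusted p under 0.05 there were 5 LNCaP members at 12 h, 3 at 24 h and 3 between the time points, beside 3950, 2599 and 837 of the 13156 genes. In CT1258 after 12 h, 1 of 7 members was called higher (JUN) and 1 lower (JUNB), beside 22.2% and 22.1% of 9886 genes, and all 7 members passed 0.05, beside 69.8% of genes. After 24 h, 4 were called lower (JUNB, JUND, EGR1 and EGR2) and none higher, beside 17.2% and 16.6%. Between 12 h and 24 h, 2 were called lower (JUN and EGR1) and none higher, beside 1.28% and 0.85% of genes. The members that passed the filter did so on their level in some of these groups, so that their shares are a description.

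Levels in DMSO were compared between PC-3 and LNCaP, whose reads were mapped and counted alike, in a fit over both tables. Of the 7 members that passed the filter in both lines, 5 differed at an adjusted p under 0.001, all higher in PC-3, where 40.8% of 15018 genes differed in either direction. JUNB was 9.44-fold higher (adjusted p = 4.60e-08), FOSB 13.9-fold (log2 difference 3.8, adjusted p = 2.44e-07), FOS 5.42-fold (adjusted p = 1.97e-05), FOSL2 3.47-fold (adjusted p = 4.24e-07) and JUND 1.79-fold (adjusted p = 0.000105). FOSL1 and EGR2 passed the filter through PC-3 alone, so that their difference follows from the filter and is given as a description. FOSL1 was at 214 and 291 CPM in PC-3 and at 0.247 to 0.463 CPM in LNCaP. EGR2 had 116 counts in the PC-3 controls and 3 in the LNCaP controls, a ratio of 48.3 per total count with an exact 95% interval of 16.1 to 238 that covers counting error only. JUN (log2 difference 0.40, adjusted p = 0.0984) and EGR1 (0.90, adjusted p = 0.0735) did not pass. Without PC-3 DMSO replicate 3, FOS (1.54, adjusted p = 0.00183) and JUND (0.75, adjusted p = 0.00256) missed 0.001. FOSB was then at 2.68 and EGR1 at -0.50 on the log2 scale, and FOSB was at 4.42 without replicate 2. The cell line and any batch that goes with it cannot be told apart.

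Per kilobase of the canonical transcript, which allows genes of one line to be compared, the order of the members in DMSO differed between the human lines. In PC-3, FOSL1 (148 ± 31.8 CPM per kb, mean ± SD, n = 2) and JUNB (130 ± 35) were highest and overlapped, followed by JUND (85.3 ± 7.94), and by FOS (42.9 ± 28.2), JUN (34.6 ± 13.4), EGR1 (17.1 ± 15.1) and FOSL2 (8.63 ± 1.84), each of which overlapped with the next. FOSB (3.81 ± 2.91), EGR2 (1.31 ± 1.24) and EGR3 (0.342 ± 0.315) followed and overlapped too. In LNCaP the order was JUND (48.4 ± 6.19, n = 3), JUN (26.7 ± 2.75), then JUNB (14.0 ± 6.66), EGR1 (9.33 ± 3.30) and FOS (8.07 ± 1.76), each overlapping with the next, and FOSL2 (2.53 ± 0.26), with the other members at means of at most 0.278 CPM per kb.

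On this scale the make-up of the FOS family was that of FOSL1 in PC-3 and that of FOS and FOSL2 in LNCaP. In PC-3, FOSL1 made up 69.2% and 78.4% of the family's CPM per kb in the controls, and 93.1% to 93.6% after 12 h and 89.6% to 91.1% after 24 h, while the share of FOS went from 14.3% and 25.5% to between 1.71% and 2.15% and to between 3.60% and 5.03%. In LNCaP, the share of FOS was 69.6% to 75.2% in DMSO, 41.7% to 56.5% after 12 h and 26.0% to 35.7% after 24 h, and that of FOSL2 was 21.4% to 25.2%, 38.7% to 51.6% and 54.9% to 65.0%. The groups did not overlap in these shares. The family sum behind them was larger in PC-3 (161 and 247 CPM per kb in DMSO) than in LNCaP (9.35 to 13.3), and in LNCaP it was 3.26 to 4.60 after 24 h. In the JUN family of PC-3, JUNB made up 50.1% and 53.4% in DMSO and 37.0% to 39.3% after 12 h, and JUN 12.0% and 15.2% in DMSO and 30.7% to 32.6% after 12 h.

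**Figure D3:**
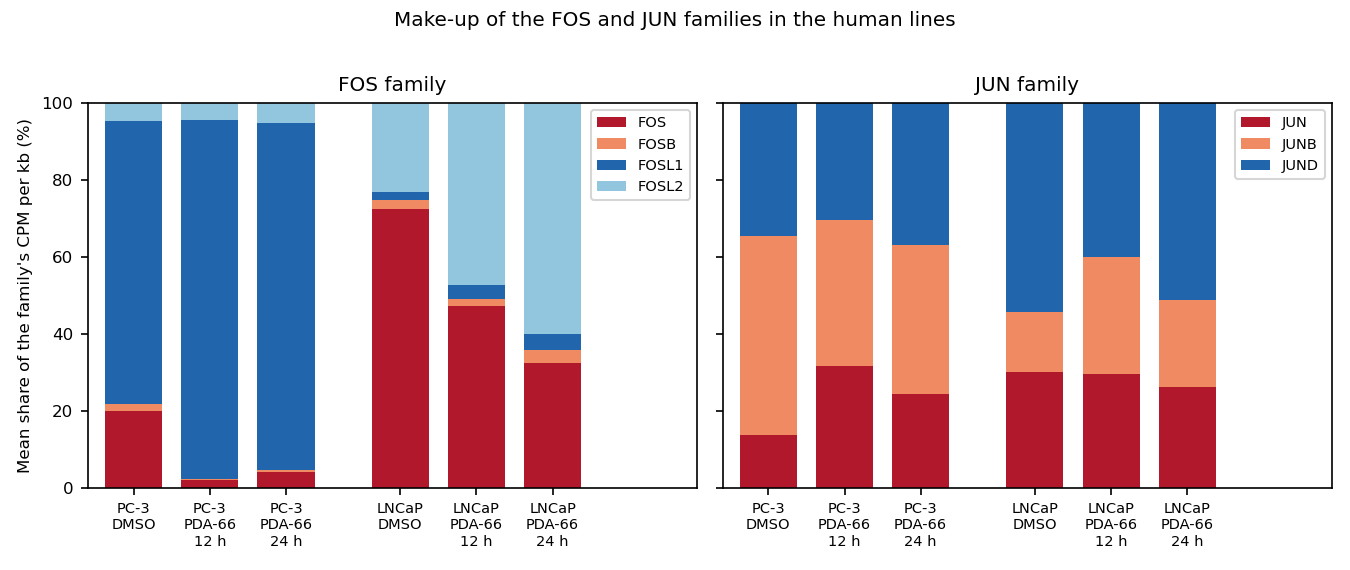
Mean share (%) of each member in the summed CPM per kb of the FOS family (left) and of the JUN family (right) by group in PC-3 (DMSO n = 2, others n = 3) and LNCaP (n = 3). FOSL1 fills at least 69.2% of the FOS family in every PC-3 library, and FOS narrows with PDA-66 in both lines.

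Differences in response between the lines were tested as an interaction in 1 fit over 11736 genes shared by symbol, with an adjusted p under 0.05, and 13 of the 48 differences tested passed. Of the 48, 36 concerned members that passed the filter in both lines, and 12 of these differed. FOS was not in this fit, since CT1258 has no row for it. JUNB set LNCaP apart. Its response was higher in LNCaP than in PC-3 by 1.69 on the log2 scale at 12 h (SE 0.32, adjusted p = 0.000760) and by 1.33 at 24 h (SE 0.32, adjusted p = 0.00975), and it was lower in CT1258 than in LNCaP by 1.88 (SE 0.32, adjusted p = 8.65e-05) and by 1.74 (SE 0.32, adjusted p = 0.000517). With only the 2 human lines in the fit, the JUNB difference at 24 h was 1.31 (adjusted p = 0.0542), and without PC-3 DMSO replicate 3 it was 1.05 (adjusted p = 0.103). JUN differed at 12 h, by -0.94 in LNCaP against PC-3 (SE 0.24, adjusted p = 0.00876) and by 0.85 in CT1258 against LNCaP (SE 0.23, adjusted p = 0.00488). Without PC-3 DMSO replicate 2 the first of these was -0.57 (adjusted p = 0.0813).

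EGR1 set CT1258 apart at 12 h, where its response was higher than in PC-3 by 2.49 (SE 0.48, adjusted p = 0.000375) and higher than in LNCaP by 1.77 (SE 0.46, adjusted p = 0.00408). With only PC-3 DMSO replicate 2, the first of these was 1.00 (adjusted p = 0.0598). At 24 h the EGR1 response of CT1258 was still above that of LNCaP by 2.14 (SE 0.49, adjusted p = 0.00351), and that against PC-3 was 0.97 (SE 0.48, adjusted p = 0.159). JUND at 24 h was lower in CT1258 than in PC-3 (difference -0.74, SE 0.25, adjusted p = 0.0358) and than in LNCaP (-0.93, SE 0.24, adjusted p = 0.00729). The first of these missed 0.05 without PC-3 DMSO replicate 2, CT1258 DMSO replicate 2, or CT1258 PDA-66 24 h replicate 2 or 3, with values of -0.75 to -0.55 and adjusted p-values of 0.0630 to 0.138. FOSL1 at 12 h differed by -0.84 between CT1258 and PC-3 (SE 0.22, adjusted p = 0.00598), and by -0.61 (adjusted p = 0.0654) without PC-3 DMSO replicate 2. The remaining one was FOSB at 12 h between CT1258 and PC-3, at 2.34, which is given as a description because FOSB had 2 to 22 counts a library in CT1258 and was below the filter there. It was 1.15 (adjusted p = 0.110) with only PC-3 DMSO replicate 2 and 2.08 (adjusted p = 0.0632) without CT1258 PDA-66 12 h replicate 2. In the fit of the human lines alone, the FOS response at 12 h differed by 1.71 in LNCaP against PC-3 (SE 0.51, adjusted p = 0.0356), and at 24 h the difference was -0.22 (SE 0.52, adjusted p = 0.881). The 12 h difference was 0.81 (adjusted p = 0.331) with only PC-3 DMSO replicate 2 and 2.26 (adjusted p = 0.00546) with only replicate 3. It also missed 0.05 without any 1 of the PC-3 12 h libraries, LNCaP DMSO replicate 1 or 3 or LNCaP PDA-66 12 h replicate 3, with adjusted p-values of 0.0606 to 0.0819. Leaving out libraries for this difference was chosen after seeing the data.

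Beside these counts, the share of all genes that differed was 19.6% at 12 h and 9.7% at 24 h for LNCaP against PC-3, where 2 and 1 members differed. It was 30.1% and 21.2% for CT1258 against PC-3, with 3 (FOSB among them) and 1 members, and 40.2% and 21.1% for CT1258 against LNCaP, with 3 and 3 members. The JUND responses at 12 h, alike in size in the 3 lines, differed by -0.01 (SE 0.24), 0.0012 (SE 0.28) and 0.01 (SE 0.24). An interval of 2 SE on either side of each is wide, so that a smaller difference was not detectable.

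**Figure D4:**
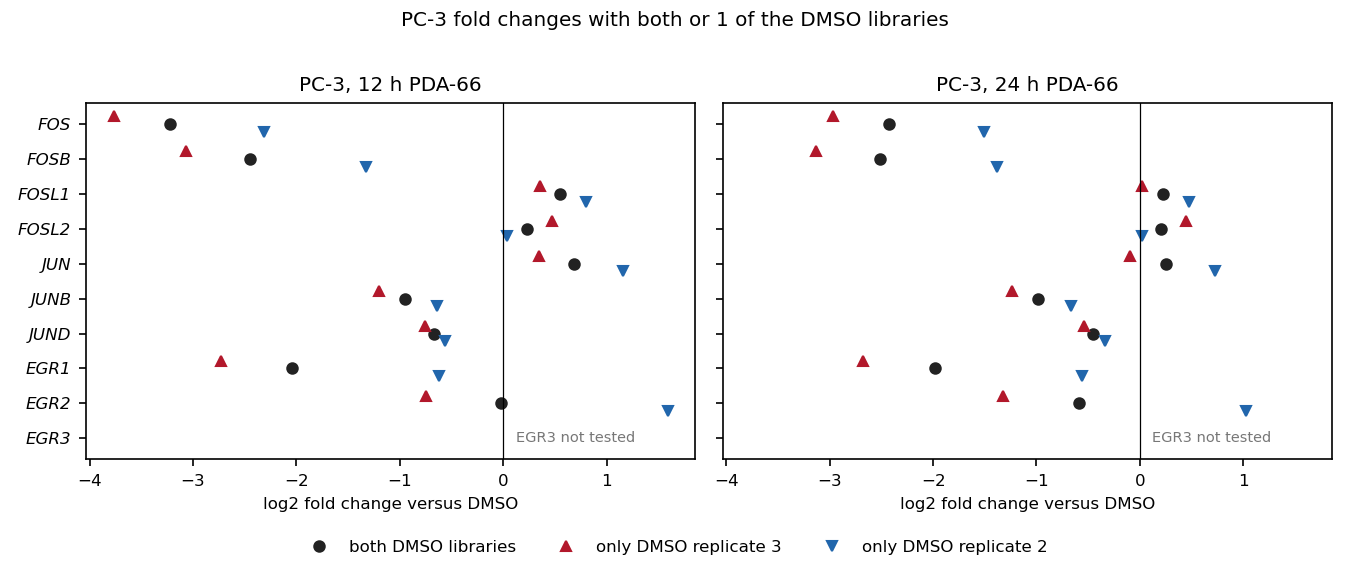
Log2 fold change against DMSO of each member in PC-3 after 12 h (left) and 24 h (right) of PDA-66 with both controls (circles), only replicate 3 (red) or only replicate 2 (blue). EGR1 at 12 h lies at -2.04, -2.73 and -0.62, and EGR2 lies on both sides of 0.

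Genes around this pathway were described from lists, by the same test. Beside the counts of these lists, 14.6% of all genes tested were called lower and 13% higher in PC-3 at 12 h. At 24 h these shares were 10.5% and 8.88%. In CT1258 they were 22.1% and 22.2% at 12 h and 17.2% and 16.6% at 24 h. In LNCaP, at 0.05, they were 4.62% and 4.52% at 12 h and 1.57% and 1.35% at 24 h. Of the MAP kinase feedback genes, which ERK signalling induces, 6 of 11 tested were called lower in PC-3 at 12 h and none higher (median log2 fold change -0.74, against -0.01 over all genes), with the ERK phosphatases DUSP5 (-1.56, SE 0.24, adjusted p = 9.55e-05) and DUSP6 (-1.43, SE 0.11, adjusted p = 3.74e-07) falling most. At 24 h 2 of 11 were lower (median -0.29), and SPRY1 (0.99, adjusted p = 2.72e-05) and SPRY4 (0.77, adjusted p = 0.000482) rose from 12 h to 24 h. In CT1258, 3 of 9 were lower and 1 higher at 12 h (median -0.12) and 4 lower and none higher at 24 h (median -0.38), with SPRY4 at -1.35 (adjusted p = 2.89e-06) and -1.91 (adjusted p = 3.03e-07). In LNCaP none of the 9 tested was called, and at 0.05 there were 4 lower and 2 higher at 12 h (median -0.77) and 1 of each at 24 h (median -1.27).

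Of 22 other immediate early genes, 4 were called lower and 1 higher in PC-3 at 12 h (median -0.07) and 5 lower and none higher at 24 h (median -0.39). Over all genes, 14.6% were lower and 13% higher at 12 h, and 10.5% and 8.88% at 24 h. MYC fell from a mean of 759 to 224 CPM at 12 h (-1.76, adjusted p = 9.53e-09) and the apoptosis inhibitor MCL1 from 407 to 213 CPM (-0.93, adjusted p = 1.84e-06), and ARC rose (1.09, adjusted p = 0.000140). In CT1258, 8 of 17 tested were lower and 2 higher at 12 h (median -0.64) and 9 lower and 2 higher at 24 h (median -0.77). PHLDA1 (-1.74, adjusted p = 4.23e-07) and the RNA decay factor ZFP36L1 (-1.53, adjusted p = 7.02e-08) fell, and GADD45B (1.60, adjusted p = 2.58e-06) and SGK1 (1.57, adjusted p = 5.83e-08) rose. In LNCaP none of the 19 tested was called, and at 0.05 there were 3 lower and 1 higher at 12 h and none at 24 h.

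Among the AP-1 partners and relatives, the stress-induced ATF3 rose in PC-3 at 12 h from a mean of 31.0 to 120 CPM (1.96, SE 0.27, adjusted p = 5.03e-05), fell again to 38.1 CPM at 24 h, and rose in CT1258 at both times (0.93, adjusted p = 1.27e-05, and 0.77, adjusted p = 0.000104). Of this list, 3 of 11 were called higher and 1 lower in PC-3 at 12 h, 1 higher and 2 lower at 24 h, and 2 higher and 4 lower of 10 in CT1258 at both times, with JDP2, a repressor of AP-1, lower there (-1.77, adjusted p = 1.48e-06, and -1.27, adjusted p = 2.89e-05). Of the 4 EGR partners, WT1 rose (2.25, adjusted p = 5.62e-07) and NAB1 fell (-0.82, adjusted p = 8.13e-05) in PC-3 at 12 h, and NAB2, a corepressor and EGR1 target, fell in CT1258 (-1.53, adjusted p = 3.75e-08, and -1.22, adjusted p = 4.41e-07). Of the upstream kinases and serum response element factors, none was called lower in any comparison with DMSO. In PC-3, 2 of 12 rose at both times (MKL2 by 1.00, adjusted p = 6.72e-05, and MAPK9 by 0.84, adjusted p = 5.92e-05, at 12 h), and in CT1258 4 of 10 rose at 12 h and 2 at 24 h.

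Known AP-1 targets went in both directions in PC-3 and CT1258. In LNCaP none of the 8 tested was called. At 0.05, 3 were lower and none higher there at 12 h (median -0.09), against 4.62% of all genes lower. At 24 h, 2 were lower and none higher (median -0.50), against 1.57%. In PC-3 at 12 h, 6 of 18 were called higher and 2 lower (median 0.20), with IL8, a neutrophil chemokine, at a mean of 493 CPM against 34.0 CPM (3.86, adjusted p = 7.26e-10), while the proteases MMP10 (-1.50, adjusted p = 0.000192) and MMP1 (-0.71, adjusted p = 6.52e-05) fell. At 24 h, 3 were higher and 2 lower. In CT1258, where 7 of the 20 had a row, 2 of 6 tested were higher and 2 lower at 12 h and 1 higher and 3 lower at 24 h, and MMP1 rose (1.34, adjusted p = 2.11e-05, at 12 h). Of 8 known EGR1 targets in PC-3, 2 were higher and 2 lower at both times, with ID3 up (2.98, adjusted p = 6.04e-09) and GDF15 down from 1265 to 177 CPM (-2.84, adjusted p = 9.34e-09) at 12 h. In CT1258, 1 of these genes was tested. Genes of the heat and handling stress list moved beside the members. Their summed level was 3972 to 4135 CPM in the PC-3 controls and 8515 to 8782 CPM at 12 h, 5045 to 6942 and 9606 to 11621 CPM in LNCaP, and 1716 to 1891 and 4795 to 5116 CPM in CT1258, and their part in the members' changes was not tested. In PC-3, 6 of these 8 genes were called higher at 12 h, while HSPA6 was lower (-1.92, adjusted p = 3.16e-07). Of the epithelial markers, 2 of 4 were called lower in PC-3 at 12 h and 3 at 24 h, and of 4 tested markers of other cell types 2 and 1 were lower and none higher.

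The genes most like a member across the 6 comparisons with DMSO were taken by the smallest root mean square difference of their log2 fold changes among 6381 genes of at least 10 CPM in every line. The 6 values share controls in pairs, so that this is a description. FOSL2 was matched most closely, by PTPN1 (0.07) and ANP32A (0.07), and JUNB by APRT (0.09) and ABCB6 (0.16). The nearest to JUN were JARID2 (0.15) and MIER3 (0.16), and to JUND CREBZF (0.15) and NCSTN (0.17). For EGR1 the nearest genes, RDH10 and RIN2, were 0.87 and 0.96 away, further than for FOSL2, JUN, JUNB or JUND. The measure is not scaled to the size of the changes, which were larger for EGR1, so that this distance is not read as an unusual pattern. Members not tested in every line were not compared.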

How the data were processed

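The authors deposited raw read counts per gene in 1 table for each cell line. Per the labels and the study's methods, poly(A) RNA was sequenced as single reads. STAR 2.3.1s was used for the human reads (hg19) and BWA for the canine reads (CanFam3.1). How strands and multiply mapped reads were counted is not given in the sources used here. One PC-3 control was left out by the authors and was not used here. Separators behind the counts of PC-3 PDA-66 24 h replicate 3 were removed. The columns P12-1 and P12-2 were used as PC-3 PDA-66 12 h libraries without a number.

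Counts were filtered with filterByExpr, scaled by TMM and tested by line with the edgeR 4.0.16 quasi-likelihood F test in R 4.3.3. The test was checked on simulated counts. Alternatives used limma 3.58.1 and DESeq2 1.42.0. Per-kilobase levels and positions used GENCODE 44 on GRCh37. All 10 members are named, and of each list the 2 genes with the largest rises and falls among those called, apart from results that are not reported here. The members and lists were chosen with earlier results of these data known. Replicates with the same number did not deviate together, so that no pairing was used.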

Additional observations from a re-analysis of the deposited data

Results flagged for a closer look

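The response of JUN, JUNB, JUND, FOSB, FOSL1 or EGR1 to PDA-66 differed between 2 cell lines in 13 of 48 tests of the difference itself (edgeR interaction, adjusted p under 0.05). Of all genes in this fit, 9.7% to 40.2% differed in a given contrast, so that the count is not read as particular to the members. In LNCaP against PC-3 the differences were -0.94 for JUN and 1.69 for JUNB at 12 h and 1.33 for JUNB at 24 h, on the log2 scale. In CT1258 against PC-3 they were 2.34 for FOSB, -0.84 for FOSL1 and 2.49 for EGR1 at 12 h and -0.74 for JUND at 24 h. FOSB had 2 to 22 counts a library in CT1258 and was below the filter there, and its difference was 1.15 (adjusted p = 0.110) with only PC-3 DMSO replicate 2. In CT1258 against LNCaP they were 0.85 for JUN, -1.88 for JUNB and 1.77 for EGR1 at 12 h, and -1.74 for JUNB, -0.93 for JUND and 2.14 for EGR1 at 24 h. The human and the canine reads were mapped with different tools, and the depth of the CT1258 controls differed from that of its PDA-66 libraries. The part of the mapping was not tested. With the CT1258 controls thinned to the depth of the other libraries, 2 members were called at 12 h and 4 at 24 h in CT1258, as without thinning. The differences in response were not recomputed with thinned controls, so that the part of depth in them was not tested. Dixon's test was not applied, since no group held more than 3 libraries.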

How the results depend on the processing

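Of 100 counts of members recomputed under other settings, 71 stayed within 1.5 times the count reported, 21 were higher and 8 lower. With no filter on low counts, 8 members were called in PC-3 at 12 h. An adjusted p under 0.05 gave 5 members in PC-3 at 24 h, 4 and 2 in LNCaP at 12 h and 24 h and 7 in CT1258 at 12 h. The edgeR likelihood ratio test gave 5 in PC-3 at 24 h, 1, 2 and 1 in LNCaP at 12 h, at 24 h and between them and 4 in CT1258 at 12 h. DESeq2 gave 1 and 2 in LNCaP at 12 h and 24 h and 4 in CT1258 at 12 h. Limma voom gave 2 in PC-3 between the time points, 1, 2 and 1 in LNCaP and 6 in CT1258 at 12 h. In that PC-3 contrast it called 16.8% of all genes, where edgeR called 0.777% higher and 0.631% lower. The shares of all genes in the other cases are not given, so that a higher count is not read as support for the members. The cause of these changes was not tested. For the responses, an adjusted p under 0.001 left 1 and 0 members in LNCaP against PC-3, 1 and 0 in CT1258 against PC-3 and 1 and 1 in CT1258 against LNCaP, at 12 h and 24 h. At 24 h, limma voom gave 2 in LNCaP against PC-3 and 5 in CT1258 against PC-3, and a fit of only the 2 lines gave 0 and 2.

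With a replicate block, 3 members were called in PC-3 at 12 h, from the 6 libraries with a number, and 4 at 24 h. In LNCaP 0 and in CT1258 2, 4 and 2 members were called, as without it. In LNCaP the adjusted p with the block was 0.0587 and 0.0572 for FOS, 0.0917 and 0.0354 for EGR1, at 12 h and 24 h, and 0.116 for FOSB and 0.0951 for JUND at 12 h. Same-numbered libraries did not deviate together, with a median correlation of -0.07 in CT1258 (9 pairs), -0.19 in LNCaP (9 pairs) and -0.09 in PC-3 (4 pairs). So few pairs cannot show whether same-numbered libraries shared a culture or a batch.

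Leaving out 1 library at a time gave as few as 4 members in PC-3 at 12 h, 2 at 24 h (without any 1 of the 24 h replicates) and 0 between them. The highest counts came with 1 control left and are not read as support. With only DMSO replicate 2, FOSL1 (0.80) and JUN (1.16) rose more at 12 h than with both controls, and EGR1 (-0.62) fell less. Where 1 control remained, it was assumed to vary like the other groups. The EGR2 fold change at 12 h reversed to 1.59 without DMSO replicate 3 and was -0.75 without DMSO replicate 2. In LNCaP the counts were 0, 0 to 2 (2 at 24 h without PDA-66 12 h replicate 2) and 0. In CT1258 they were 2 to 5 (5 at 12 h without DMSO replicate 2), 4 to 5 and 1 to 3. The level difference gave 4 to 8. Responses gave 2 to 3 and 1 to 2 in LNCaP against PC-3, 2 to 4 and 0 to 3 in CT1258 against PC-3 (0 without CT1258 PDA-66 24 h replicate 2 or replicate 3) and 3 to 4 and 3 in CT1258 against LNCaP, at 12 h and 24 h.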
